A study of Mus musculus with 13 samples.

Results

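Collagen genes were examined in primary mouse embryonic fibroblasts (MEFs) by poly(A) RNA sequencing. They are the genes whose name in the deposited table is Col, a number, the letter a and a number, the usual symbols for collagen chains. This name rule found 43 of the 25965 gene intervals in the table. Per the labels the cells were XistΔA/PGK MEFs from E13.5 embryos, with a mutant Xist allele on an X chromosome and an X chromosome of the PGK strain beside it, transduced with retrovirus and selected with puromycin. Of the 13 libraries, 12 carried either a control or a Setdb1 hairpin, each grown with or without 5-azacytidine (5-aza), which gave 4 groups of 3. A hairpin is a short RNA that depletes its target. Setdb1 is a methyltransferase for lysine 9 of histone H3, and 5-aza blocks the upkeep of DNA methylation. The drug was given for 24 h from day 3 after transduction, and cells of every group were harvested on day 7. In each group replicate 1 carried a different hairpin (against luciferase in controls, shSetdb1.6 in Setdb1 groups) from replicates A and B (non-silencing, shSetdb1.4). The last library, named PGK, received 5-aza and entered no test. Its title names no hairpin, and the study's methods speak of a PGK sample used to define the alleles of the PGK strain. Whether this library is that sample is not stated. Per the study's methods, Setdb1 hairpins went into cells heterozygous for a Setdb1 gene trap and the non-silencing hairpin into wild-type cells. Nothing states the genotype of cells with the luciferase hairpin or of any single library, so hairpin and genotype cannot be told apart. The labels also do not say whether replicates were separate embryos or cultures, so p-values measure the spread between these libraries.

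Collagens are secreted proteins built from 3 chains wound into a triple helix. Fibrillar collagens assemble into the fibrils that give tissues tensile strength, and fibroblasts are their main makers. Basement membrane collagens form sheets under epithelia and around vessels. Beaded filament and short chain collagens form finer networks, and fibril-associated collagens decorate fibrils. Transmembrane collagens stay anchored in the cell surface. Before secretion the chains are hydroxylated, folded on the chaperone Hsp47 (Serpinh1), trimmed and cross-linked.

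Reads in genes numbered 36.4 to 51.3 M per hairpin library and 17.4 M in the library without a named hairpin. Setdb1 was at 46.1 to 46.4 RPM (reads of a gene scaled to the size of its library) in the 3 control libraries and at 12.1 to 15.4 RPM in the 3 Setdb1 hairpin libraries. With 5-aza it was at 42.7 to 43.9 RPM in control and at 10.5 to 14.5 RPM in Setdb1 hairpin libraries. All 8 fibroblast markers passed the filter on low values, and their summed level was 14817 to 18212 RPM over the 12 libraries. The macrophage, endothelial and Schwann cell lists summed to at most 15.2, 8.20 and 1.86 RPM in these libraries. The smooth muscle and myofibroblast list, led by Acta2, summed to 9429 to 11420 RPM. The epithelial list summed to 2.74 to 3.27 RPM in control and to 21.0 to 23.6 RPM in Setdb1 hairpin libraries with 5-aza, most of it Krt18, a keratin of simple epithelia. The osteoblast and adipocyte lists summed to 35.8 to 48.1 and 9.67 to 30.6 RPM, with Adipoq and Plin1 of the latter at 0 throughout. In bulk RNA, fewer cells of a type and less RNA per cell cannot be told apart.

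Type I collagen dominated. Levels between genes are compared here as RPM per kb of the longest annotated transcript, in control hairpin libraries without 5-aza. Col1a1, the alpha 1 chain of type I collagen, led with 1422 RPM per kb, and Col1a2, its alpha 2 partner, followed with 656. Col4a1 (333), Col5a1 (311) and Col5a2 (309) came next, and the ranges of their 3 libraries overlapped. Col4a2 stood at 256 RPM per kb, and Col8a1 (175) and Col3a1 (171) overlapped. The main chains of type VI collagen, Col6a1 (131), Col6a3 (113) and Col6a2 (79.8), lay near Col12a1 at 128 RPM per kb. All other collagens, the type VI chains Col6a4, Col6a5 and Col6a6 among them, were at 25.0 RPM per kb or lower. The 43 genes together took 2.68% to 3.31% of the summed RPM of the listed genes in these 3 libraries.

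**Figure D1:**
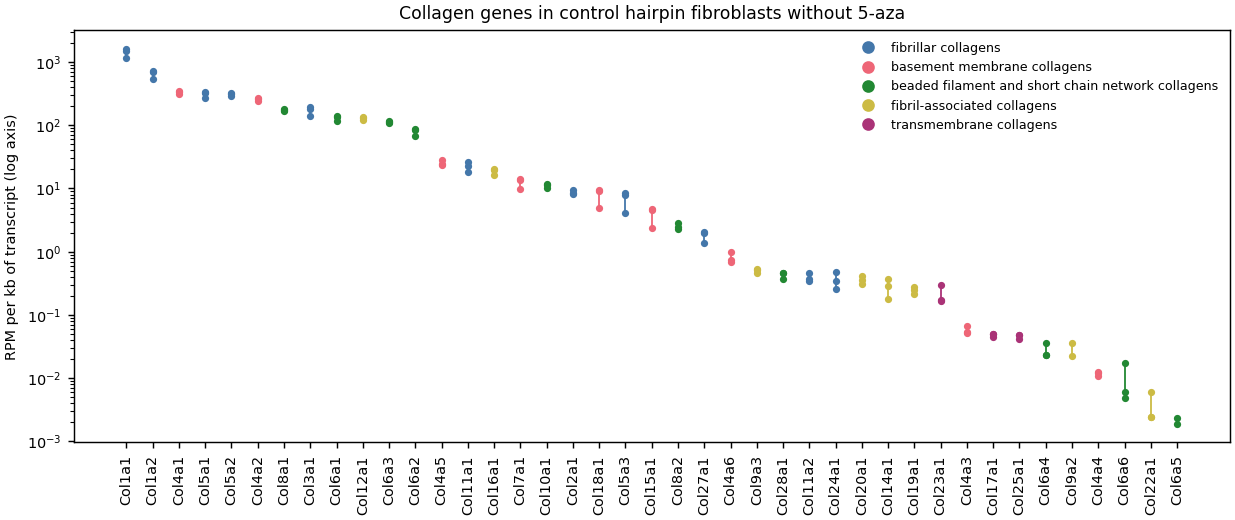
RPM per kb of transcript (log axis) for each collagen gene in the 3 control hairpin libraries without 5-aza, 1 point per library, coloured by collagen class. Libraries at 0 reads and the genes Col9a1 and Col13a1, at 0 in all 3, are left out, and the means of the 3 libraries, those at 0 included, fall from 1422 for Col1a1 to 0.00141 for Col6a5.

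Of the 43 genes, 31 reached 1 RPM in at least 3 hairpin libraries and were tested, 28 of them at 1 RPM or more in all 12. Col28a1 reached it in 10 libraries, and Col14a1 and Col23a1 in 9. All 11 fibrillar collagens passed, with 7 of 9 basement membrane, 7 of 10 beaded filament and short chain network, 5 of 9 fibril-associated and 1 of 4 transmembrane collagens. The 12 others were too low to test. Among them, Col19a1, a fibril-associated collagen, was highest and held 21 to 56 reads a library. Col17a1, a collagen of hemidesmosomes, held 9 to 29 reads a library. It was at 0.247 to 0.280 RPM in control and at 0.538 to 0.560 RPM in control libraries with 5-aza. With Setdb1 hairpins it was at 0.215 to 0.358 RPM without and at 0.460 to 0.560 RPM with 5-aza. Col4a3 and Col4a4, chains of the basement membrane of the kidney filter, held at most 47 and 12 reads. Col25a1 held at most 24 reads, Col6a4 25, Col22a1 8, Col6a6 7, and Col9a2 and Col6a5 6. Col9a1 and Col13a1 held at most 1 read. A count of 0 allows up to 3 reads. This limit covers counting error alone, because reads copied by PCR do not stand for separate molecules.

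Several collagen genes lie next to each other. Col4a1 and Col4a2 (chromosome 8) are transcribed in opposite directions from starts that overlap by 22 bp in the table, and Col4a4 and Col4a3 (chromosome 1) and Col4a6 and Col4a5 (chromosome X) are arranged in the same head-to-head way with gaps of 71 and 1308 bp. Whether reads were counted by strand is not given in the sources used here, so reads in the 22 bp shared by Col4a1 and Col4a2 could fall to either. Promoter windows of 250 bases before to 50 bases after the start were taken from RefSeq (GRCm38.p6), which matched 35 of the 43 genes. The windows of both tested head-to-head pairs are shown because their genes were called lower with Setdb1 hairpins (Col4a5 and Col4a6 without 5-aza, Col4a1 and Col4a2 with it), and those of both type VIII chains because these fell with 5-aza. Each is printed 5′ to 3′ on the gene's strand, with every CpG, the site of DNA methylation, in capitals.
Col4a1 (chr8:11312777-11313076, minus strand): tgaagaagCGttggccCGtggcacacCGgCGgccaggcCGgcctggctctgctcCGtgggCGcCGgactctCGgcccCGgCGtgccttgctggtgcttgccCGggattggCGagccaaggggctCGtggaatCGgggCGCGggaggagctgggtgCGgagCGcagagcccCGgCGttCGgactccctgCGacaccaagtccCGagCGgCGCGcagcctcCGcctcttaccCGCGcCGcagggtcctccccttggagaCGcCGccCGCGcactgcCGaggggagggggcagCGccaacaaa
Col4a2 (chr8:11312555-11312854, plus strand): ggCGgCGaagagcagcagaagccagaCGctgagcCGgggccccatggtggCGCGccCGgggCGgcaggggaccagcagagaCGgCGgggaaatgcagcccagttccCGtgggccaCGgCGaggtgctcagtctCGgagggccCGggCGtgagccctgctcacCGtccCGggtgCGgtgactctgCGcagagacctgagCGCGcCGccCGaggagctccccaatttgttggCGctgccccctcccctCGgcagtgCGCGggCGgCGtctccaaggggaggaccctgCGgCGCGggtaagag
Col4a6 (chrX:141474027-141474326, minus strand): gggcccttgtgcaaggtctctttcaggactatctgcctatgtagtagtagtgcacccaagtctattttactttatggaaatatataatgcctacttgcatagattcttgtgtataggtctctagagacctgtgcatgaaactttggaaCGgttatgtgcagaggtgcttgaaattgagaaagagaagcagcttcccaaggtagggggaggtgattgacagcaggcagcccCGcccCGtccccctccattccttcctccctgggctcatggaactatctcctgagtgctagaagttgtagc
Col4a5 (chrX:141475169-141475468, plus strand): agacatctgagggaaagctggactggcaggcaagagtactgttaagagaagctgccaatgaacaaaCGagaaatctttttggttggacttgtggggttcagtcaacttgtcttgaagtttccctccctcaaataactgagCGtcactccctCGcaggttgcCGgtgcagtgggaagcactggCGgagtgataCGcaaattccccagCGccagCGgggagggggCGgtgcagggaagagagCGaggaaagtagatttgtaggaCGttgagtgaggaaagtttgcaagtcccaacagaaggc
Col8a1 (chr16:57754688-57754987, minus strand): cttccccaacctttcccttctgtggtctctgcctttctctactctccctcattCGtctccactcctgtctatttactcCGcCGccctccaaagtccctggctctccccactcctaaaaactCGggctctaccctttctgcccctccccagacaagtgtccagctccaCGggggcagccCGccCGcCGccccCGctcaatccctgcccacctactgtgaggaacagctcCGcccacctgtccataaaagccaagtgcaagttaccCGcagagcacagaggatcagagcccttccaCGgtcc
Col8a2 (chr4:126286544-126286843, plus strand): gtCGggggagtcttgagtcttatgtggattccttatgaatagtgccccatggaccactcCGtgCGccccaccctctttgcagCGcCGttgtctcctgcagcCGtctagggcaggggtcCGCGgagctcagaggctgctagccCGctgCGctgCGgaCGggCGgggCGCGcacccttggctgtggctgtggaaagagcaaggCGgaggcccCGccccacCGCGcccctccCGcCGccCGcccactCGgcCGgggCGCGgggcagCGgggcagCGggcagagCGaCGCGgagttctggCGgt
The Col4a1 and Col4a2 windows overlap, and hold 37 and 33 CpG sites, against a median of 12 over the 35 collagen windows and of 7 over all 32851 promoter windows. Col8a2 held 32, Col8a1 12, Col4a5 11 and Col4a6 3. A ratio of observed to expected CpG of at least 0.6 was found in 11 of the 35 collagen windows (31.4%), against 35.8% of all windows. The GC box GGGCGG, searched on both strands, was in 22 of 35 (62.9%, against 35.7% of all windows). CCAAT was in 12 (34.3%, against 37.4%) and TATAAA in 5 (14.3%, against 13.6%). The 3 motifs do not contain each other, and GGGCGG holds a CpG. DNA methylation of these windows was not analysed here.

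The first comparison asked what depletion of Setdb1 alone does. Col9a3 and Col2a1, both collagens of cartilage, were higher with Setdb1 hairpins, and Col4a6, Col4a5 and Col8a1 were lower. The abundant type I, III and V fibrillar chains passed no test. By limma, 2 of 31 collagens were called higher and 3 lower at a Benjamini-Hochberg adjusted p under 0.05, against 9.007% of all 13134 tested genes higher and 3.403% lower. The median log2 fold change of the 31 was −0.06, and of all genes 0.03.

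Col9a3, a chain of the type IX collagen that coats cartilage fibrils, was at 1.57, 1.41 and 1.62 RPM in control replicates 1, A and B (the order used throughout) and at 3.20, 3.41 and 3.64 RPM with Setdb1 hairpins. Every Setdb1 hairpin library lay above every control library. The log2 fold change was 1.15 ± 0.11 (SE; limma adjusted p = 5.9e-05), a 2.22-fold rise. Col2a1, the main fibrillar collagen of cartilage, was at 42.5, 47.6 and 44.0 RPM in control and at 81.9, 53.3 and 71.4 RPM with Setdb1 hairpins. The groups did not overlap, but replicate A of the Setdb1 hairpin stayed close to the controls. Col2a1 rose by 0.60 ± 0.17 on the log2 scale (limma adjusted p = 0.0392). That call was lost without any 1 of the 3 control libraries, without replicate 1 or B of the Setdb1 hairpin, and without replicate B of either 5-aza group, with an adjusted p of up to 0.17. Other cartilage genes moved beside these. Of 7 chondrocyte markers 4 were tested, and Acan (the cartilage proteoglycan aggrecan) and Hapln1 (its link protein) were called higher. Acan was at 0.234 to 0.798 RPM in control and at 2.82 to 4.38 RPM with Setdb1 hairpins, and was called in 8 of 21 alternatives. The summed level of the list was 33.9 to 40.6 RPM in control and 42.7 to 50.01 RPM with Setdb1 hairpins, most of it Sox9, Lect1 was at 0, and Matn1 and Matn3 were under 1 RPM. Markers of other cells were called higher too: 2 of 2 tested epithelial, 1 of 2 skeletal muscle, 1 of 2 osteoblast and 1 of 3 adipocyte markers. Col11a2, a type XI chain, was not called, with means of 2.37 RPM in control and 2.26 RPM with Setdb1 hairpins. Col9a1 and Col9a2, the other type IX chains, were too low to test. The part of these markers in the collagen result was not tested.

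The X-linked neighbours Col4a5 and Col4a6, whose windows are printed above, encode chains of specialised basement membranes. Col4a5 was at 181, 151 and 157 RPM in control and at 129, 124 and 135 RPM with Setdb1 hairpins. It fell by 0.33 ± 0.06 on the log2 scale (limma adjusted p = 0.00498), with no overlap. Col4a6 was at 6.52, 4.58 and 4.96 RPM in control and at 3.53, 3.03 and 3.30 RPM with Setdb1 hairpins. It fell by 0.69 ± 0.14 (limma adjusted p = 0.00902), also without overlap, and control replicate 1 was the highest library for both genes. Col8a1, which forms the short chain network of vessel walls and the cornea, was at 904, 866 and 913 RPM in control and at 642, 754 and 717 RPM with Setdb1 hairpins. All Setdb1 hairpin libraries lay below all controls, and Col8a1 fell by 0.35 ± 0.06 (limma adjusted p = 0.00252).

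Col4a1 and Col4a2, the chains found in nearly all basement membranes, differed by −0.19 ± 0.07 and −0.23 ± 0.09 on the log2 scale and were not called (limma adjusted p = 0.123 and 0.104). Col4a1 was at 2068, 2219.8 and 2327 RPM in control and at 1862, 2089.9 and 1854 RPM with Setdb1 hairpins. For Col4a2 the values were 1552, 1660.3 and 1736 RPM in control and 1334, 1528 and 1362 RPM with Setdb1 hairpins. The groups overlapped for Col4a1 and not for Col4a2. Type I collagen was not called. Col1a1 was at 6984, 8761 and 9547 RPM in control and at 8405, 11424 and 8068 RPM with Setdb1 hairpins, a log2 difference of 0.14 ± 0.23 (limma adjusted p = 0.751). Without replicate A of the Setdb1 hairpin its difference was −0.02. Col1a2 differed by 0.18 ± 0.21 (limma adjusted p = 0.632) and Col3a1, the type III chain of skin and vessels, by 0.16 ± 0.29 (limma adjusted p = 0.765), which became −0.03 without that library.

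**Figure D2:**
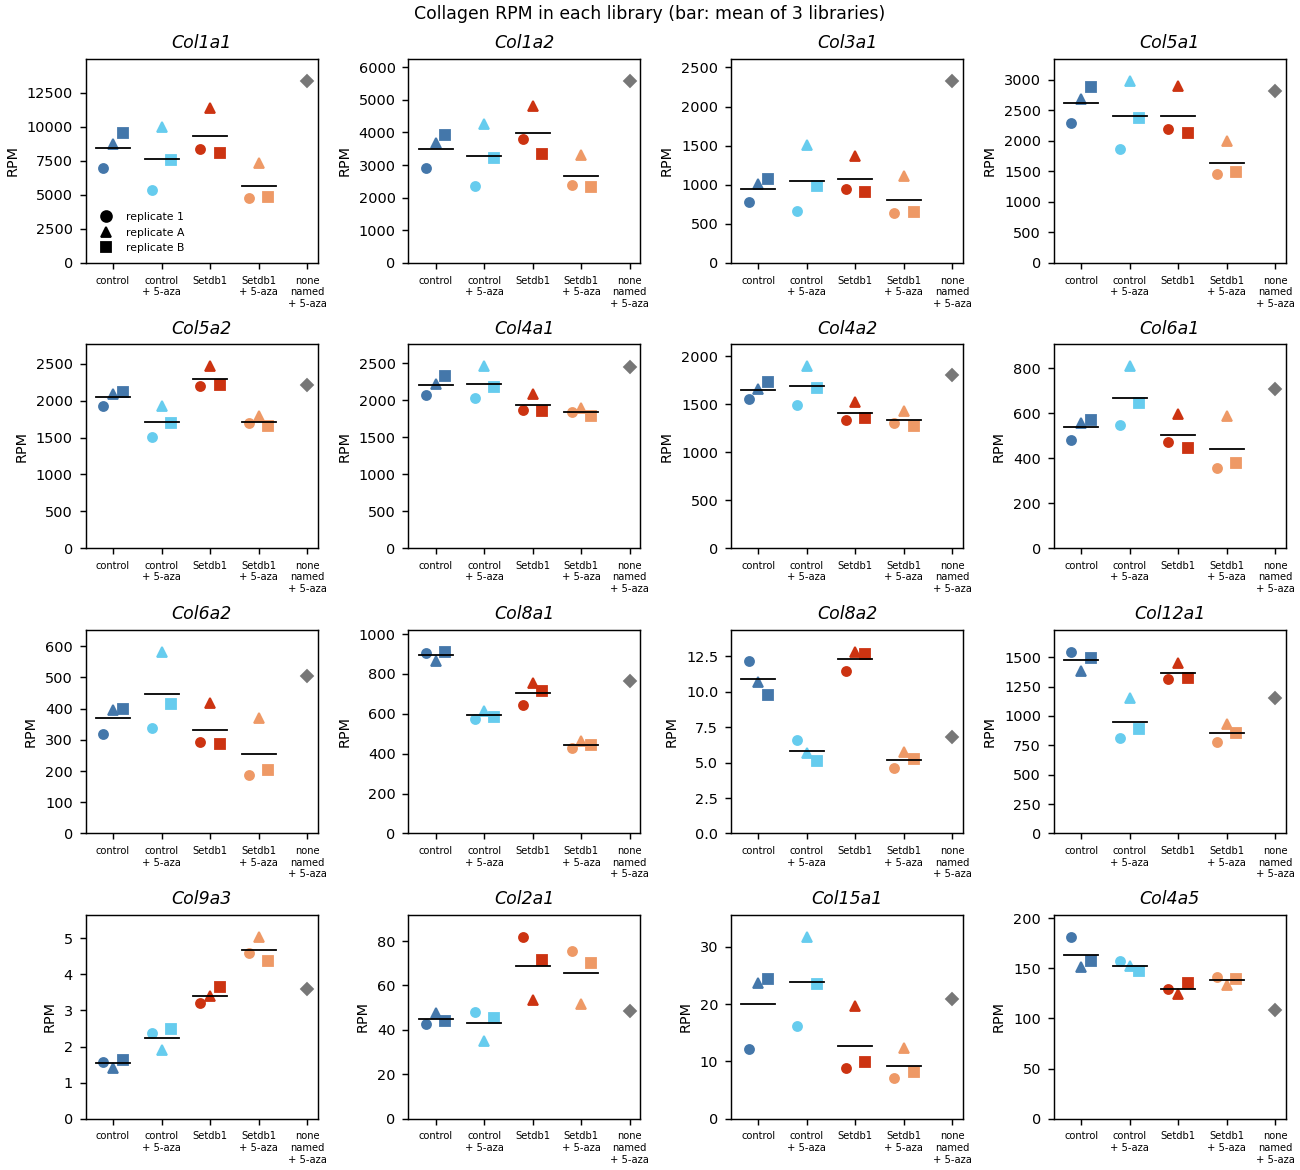
RPM of 16 collagen genes in each of the 13 libraries, grouped by hairpin and 5-aza, with marker shapes for replicates 1, A and B and a bar at the mean of 3 libraries. Col8a1, Col8a2 and Col12a1 are lower in every 5-aza library than in any library of the same hairpin without 5-aza, while for Col1a1 replicate A is the highest of 3 in all groups but control.

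The second comparison asked the same in cells that had also received 5-aza. Col9a3 and Col2a1 were again higher with Setdb1 hairpins. Col15a1, the type VI chains Col6a1 and Col6a2, Col28a1, Col8a1 and the pair Col4a1 and Col4a2 were lower. By limma, 2 of 31 collagens were called higher and 7 lower, against 14.5% of all tested genes higher and 5.368% lower. The median log2 fold change was −0.31 over the collagens and 0.05 over all genes. Of the 31 values 27 were below 0, against 4820 of all 13134 genes. Collagens varied together within groups, as described below, so these values are not independent. The count of calls rested on single libraries. It was 2 (Col9a3 and Col8a1) when replicate A or B of the control group with 5-aza, or replicate 1 or B of the Setdb1 group with 5-aza, was left out, and 14 without replicate 1 of the control group with 5-aza.

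Col9a3 was at 2.36, 1.89 and 2.49 RPM in control and at 4.60, 5.04 and 4.36 RPM with Setdb1 hairpins, both with 5-aza. It rose by 1.06 ± 0.11 on the log2 scale (limma adjusted p = 0.000107). Col8a1 was at 574, 617 and 587 RPM in control and at 428, 464 and 446 RPM with Setdb1 hairpins, and fell by 0.41 ± 0.06 (limma adjusted p = 0.000694). Neither gene overlapped between the groups, and no library left out ended either call. Col2a1 was at 48.1, 35.1 and 45.5 RPM in control and at 75.5, 51.5 and 70.1 RPM with Setdb1 hairpins, with replicate A lowest in both groups. It rose by 0.61 ± 0.17 (limma adjusted p = 0.0272). The chondrocyte list beside it summed to 38.9 to 45.6 RPM in control and to 49.99 to 57.8 RPM with Setdb1 hairpins, with Sox9 and Hapln1 called higher. Of the other tested markers, 2 of 2 epithelial, 1 of 2 osteoblast and 1 of 3 adipocyte markers were called higher. Called lower were 1 of 8 fibroblast, 1 of 3 endothelial, 1 of 3 macrophage and 1 of 2 skeletal muscle markers. The part of these markers was not tested.

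Of type VI collagen, the beaded filament around cells, the chains Col6a1 and Col6a2 were called lower with Setdb1 hairpins. Col6a1 was at 548, 809 and 643 RPM in control and at 356, 587 and 381 RPM with Setdb1 hairpins. It fell by 0.62 ± 0.19 (limma adjusted p = 0.0372), and replicate A of the Setdb1 hairpin lay inside the control range. Col6a2 was at 339, 583 and 415 RPM in control and at 188, 370.4 and 203 RPM with Setdb1 hairpins, with the same overlap. It fell by 0.84 ± 0.26 (limma adjusted p = 0.0375). Col6a3, the third main chain, was at 1129, 1632 and 1315 RPM in control and at 1011, 1153 and 1026 RPM with Setdb1 hairpins, and just missed the threshold (limma adjusted p = 0.0504). Both calls in type VI were also lost without replicate A or B of the control hairpin without 5-aza and in a fit of these 2 groups alone, with an adjusted p of up to 0.159.

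Of the basement membrane genes, Col15a1, a collagen of the zone next to basement membranes, was at 16.2, 31.7 and 23.4 RPM in control and at 7.11, 12.4 and 8.10 RPM with Setdb1 hairpins. The groups did not overlap and the log2 fold change was −1.36 ± 0.36 (limma adjusted p = 0.02). Col4a2 was at 1498, 1898 and 1672 RPM in control and at 1302, 1432 and 1273 RPM with Setdb1 hairpins, and fell by 0.33 ± 0.09 (limma adjusted p = 0.0181). Its head-to-head neighbour Col4a1 was at 2029, 2459.8 and 2179 RPM in control and at 1843, 1899 and 1784 RPM with Setdb1 hairpins. Col4a1 fell by 0.27 ± 0.07 (limma adjusted p = 0.0269), and neither chain overlapped between the groups. Col28a1, a collagen related to type VI, was at 1.35, 2.02 and 1.51 RPM in control and at 0.959, 1.32 and 0.916 RPM with Setdb1 hairpins, without overlap. It fell by 0.61 ± 0.19 (limma adjusted p = 0.0447) at 46 to 112 reads a library. These calls and that of Col2a1 were lost in the same 4 left-out fits that reduced the count to 2, and that of Col28a1 also without control replicate A or B or Setdb1 hairpin replicate 1, with an adjusted p of up to 0.165. The fibrillar chains Col1a1, Col1a2 and Col3a1 differed by −0.43 ± 0.23, −0.27 ± 0.21 and −0.37 ± 0.29 and were not called (limma adjusted p = 0.21, 0.385 and 0.39).

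The third comparison asked what 5-aza does in control hairpin cells. Col8a1 and Col8a2, both chains of type VIII collagen, fell together with Col12a1 and Col5a2, and Col9a3 and Col20a1 rose. No chain of type I, III or VI was called in the fit without a block. By limma, 2 of 31 collagens were called higher and 4 lower, against 13.47% of all tested genes higher and 5.345% lower. In a second fit, libraries of the same hairpin and replicate formed a block. Limma then called 8 higher and 6 lower, against 20.6% and 9.12% of all tested genes. Col6a1 and Col6a3 were among the higher (limma adjusted p = 0.0157 and 0.0396). The control hairpin pairs did not all correlate above 0.1, which limits this fit. The median log2 fold change was −0.04 over the collagens and 0.04 over all genes. Markers of other cells moved in the same comparison. The skeletal muscle list summed to 15.4 to 18.6 RPM without and 27.6 to 33.8 RPM with 5-aza, and both of its tested genes, Des and Actc1, were called higher. The macrophage list summed to 10.2 to 11.2 and 12.96 to 15.2 RPM, with Itgam and Csf1r called higher and the defining marker Emr1 at 0.0861 RPM or less. Krt8, Krt18 and the Schwann cell gene S100b were called higher too, and the endothelial gene Emcn lower. Their part in the collagen result was not tested.

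Col8a2 was at 12.2, 10.7 and 9.75 RPM without and at 6.57, 5.66 and 5.12 RPM with 5-aza. It fell by 0.91 ± 0.11 on the log2 scale (limma adjusted p = 0.000291). Col8a1 was at the 904, 866 and 913 RPM given above without and at 574, 617 and 587 RPM with 5-aza, and fell by 0.59 ± 0.06 (limma adjusted p = 6.74e-05). No 5-aza library of either gene reached the level of a library without the drug. Col12a1, which coats type I fibrils in tendon and muscle, was at 1548, 1381 and 1489.7 RPM without and at 813, 1156 and 885 RPM with 5-aza. It fell by 0.65 ± 0.11 (limma adjusted p = 0.00235), also with no overlap, and replicate A fell least. These 3 calls held without any 1 of the 12 libraries.

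Col5a2, which pairs with Col5a1 in the type V collagen that starts fibrils, was at 1923, 2092 and 2121 RPM without and at 1511, 1932 and 1692 RPM with 5-aza, and replicate A with 5-aza lay inside the range without it. Col5a2 fell by 0.26 ± 0.08 (limma adjusted p = 0.0437). The call was lost without replicate 1 or B of either 5-aza group, replicate A or B of the control hairpin, or replicate 1 or B of the Setdb1 hairpin, with an adjusted p of up to 0.146. Col9a3 was at the 1.57, 1.41 and 1.62 RPM given above without and at 2.36, 1.89 and 2.49 RPM with 5-aza. It rose by 0.54 ± 0.11 (limma adjusted p = 0.00741), without overlap. Col20a1, a minor fibril-associated collagen, was at 2.04, 1.77 and 1.55 RPM without and at 2.20, 2.498 and 2.46 RPM with 5-aza. It rose by 0.42 ± 0.13 (limma adjusted p = 0.0469) at 62 to 132 reads a library, a call that held in 7 of 23 alternatives. It was lost without any 1 library but replicate 1 of the control hairpin, replicate A of the Setdb1 hairpin or replicate 1 of the Setdb1 hairpin with 5-aza, with an adjusted p of up to 0.185, and when libraries were centred on their medians.

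Col1a1 with 5-aza was at 5381, 10014 and 7585 RPM, around the values without it, and differed by −0.17 ± 0.23 (limma adjusted p = 0.639). Col1a2 was at 2902, 3692 and 3926 RPM without and at 2371, 4264 and 3210.1 RPM with 5-aza (−0.12 ± 0.21, limma adjusted p = 0.718). Without replicate 1 of the control group with 5-aza both differences turned, to 0.06 for Col1a1 and 0.09 for Col1a2. Col3a1 was at 773, 1004 and 1073 RPM without and at 662, 1511 and 986 RPM with 5-aza (0.08 ± 0.29, limma adjusted p = 0.873). It became −0.06 without control replicate 1 and −0.22 without replicate A of the control group with 5-aza. For Col5a1, the other type V chain, the values were 2293, 2679 and 2876 RPM without and 1868, 2981 and 2367 RPM with 5-aza, and the groups overlapped. The type VI chains overlapped too, with Col6a1 at 483 to 569 RPM without and 548 to 809 RPM with 5-aza, Col6a2 at 319 to 400.0 and 339 to 583 RPM, and Col6a3 at 1117 to 1169 and 1129 to 1632 RPM.

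**Figure D3:**
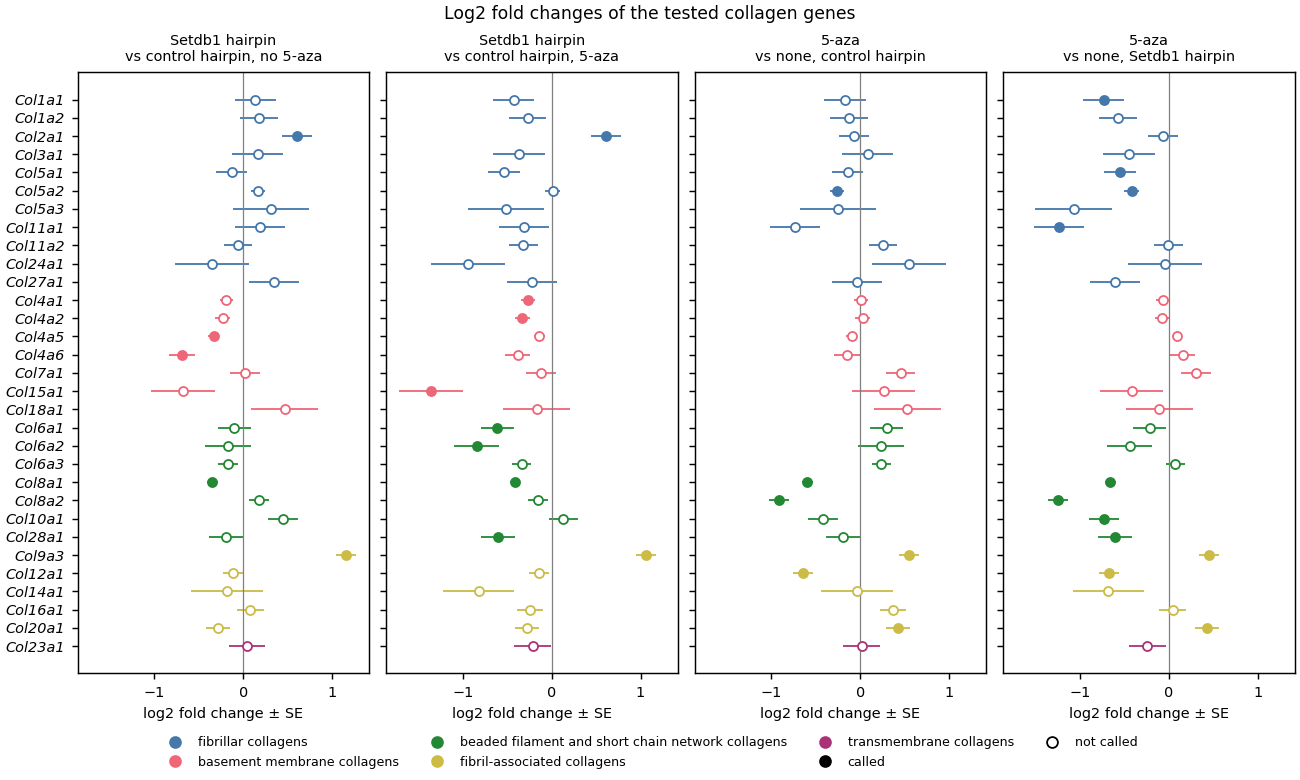
Log2 fold changes with their SE for the 31 tested collagen genes in the 4 comparisons of 2 groups, coloured by collagen class, with filled points for genes called by limma at an adjusted p under 0.05. Col8a1 is called lower in all 4 and Col9a3 higher in all 4, and the comparison of 5-aza in Setdb1 hairpin cells holds the most called points (11).

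The fourth comparison asked what 5-aza does where Setdb1 was depleted. Fibrillar collagens fell here: Col1a1, Col5a1, Col5a2 and Col11a1 were called lower, 4 of the 11 fibrillar genes tested. All 11 values were below 0, that of Col11a2 at −0.005, against 4877 of all 13134 genes. Col8a1, Col8a2, Col10a1, Col28a1 and Col12a1 fell as well, and Col9a3 and Col20a1 rose. By limma, 2 of 31 collagens were called higher and 9 lower, against 21.36% of all tested genes higher and 7.515% lower. The median log2 fold change was −0.42 over the collagens and 0.06 over all genes. Here libraries of the same hairpin and replicate, without and with 5-aza, deviated together, and with each such pair as a block (the pair block) limma called 20 collagens, 3 higher and 17 lower, against 28.28% of all tested genes higher and 11.89% lower in that fit. That fit takes 1 spread from all 12 libraries, so it also rests on the control hairpin pairs, which did not all correlate above 0.1. Without the block, leaving out replicate A or 1 of the Setdb1 hairpin, or replicate B of the Setdb1 hairpin with 5-aza, reduced the count to 7. Of the 8 fibroblast markers 1 was called higher and 1 lower. Of the other cells' markers, Des, Csf1r, Cd68, Krt8, Krt18 and S100b were called higher and Emcn lower. The skeletal muscle list summed to 22.4 to 23.1 RPM without and 26.6 to 31.8 RPM with 5-aza, and their part was not tested.

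Col1a1 was at 8405, 11424 and 8068 RPM without and at 4750.1, 7352 and 4811 RPM with 5-aza. The groups did not overlap, replicate A was the highest in both, and the mean went from 9299 ± 1848 to 5638 ± 1485 RPM (SD, n = 3 libraries). The log2 fold change was −0.73 ± 0.23 (limma adjusted p = 0.0337), and with the pair block it had an adjusted p of 0.000253. Without the block the call was lost without replicate A or 1 of the Setdb1 hairpin or replicate 1 or B of the Setdb1 hairpin with 5-aza, with an adjusted p of up to 0.129. Col1a2 was at 3803, 4817 and 3332 RPM without and at 2387, 3312 and 2335 RPM with 5-aza. It did not overlap either, but its difference of −0.57 ± 0.21 was called only with the pair block (limma adjusted p = 0.0602 without it and 0.000556 with it). Col3a1 was at 946, 1364 and 902 RPM without and at 633, 1118 and 648 RPM with 5-aza, with replicate A of the 5-aza group inside the other range. It differed by −0.45 ± 0.29 (limma adjusted p = 0.261 without and 0.0143 with the block).

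Type V collagen fell with it. Col5a1 was at 2193, 2891 and 2119.9 RPM without and at 1455, 1993 and 1481 RPM with 5-aza, and fell by 0.55 ± 0.18 (limma adjusted p = 0.0366). That call was lost without the 4 libraries named for Col1a1, and without replicate A of the control hairpin or replicate B of the control hairpin with 5-aza. Col5a2 was at 2199, 2468 and 2216 RPM without and at 1698, 1789 and 1656 RPM with 5-aza, with narrow groups that did not overlap. It fell by 0.42 ± 0.08 (limma adjusted p = 0.00388). Col5a3, a low chain of the same type, was at 45.3, 79.1 and 33.5 RPM without and at 18.2, 38.0 and 18.7 RPM with 5-aza, which overlapped, and was called only with the pair block (limma adjusted p = 0.0799 without and 6.44e-05 with it). Col11a1, a chain of type XI collagen that is found inside cartilage fibrils, was at 161, 276 and 168 RPM without and at 65.7, 115 and 75.0 RPM with 5-aza. It fell by 1.24 ± 0.29 (limma adjusted p = 0.00864), with no overlap.

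Type VIII collagen fell again. Col8a2 was at 11.4, 12.8 and 12.6 RPM without and at 4.60, 5.74 and 5.24 RPM with 5-aza, a log2 fold change of −1.25 ± 0.11 (limma adjusted p = 6.44e-05). Col8a1 was at 642, 754 and 717 RPM without and at 428, 464 and 446 RPM with 5-aza, and fell by 0.66 ± 0.06 (limma adjusted p = 5.85e-05). Neither gene overlapped. Col10a1, a short chain collagen made by hypertrophic cartilage cells, was at 39.9, 49.3 and 53.2 RPM without and at 23.1, 32.5 and 30.4 RPM with 5-aza, and fell by 0.73 ± 0.17 (limma adjusted p = 0.00805). Acan, of the chondrocyte list, fell as well, to 0.480 to 0.577 RPM, while Sox9 was called higher. Col12a1 was at 1315, 1449 and 1319 RPM without and at 781, 931 and 852 RPM with 5-aza, and fell by 0.67 ± 0.11 (limma adjusted p = 0.00158). All 5-aza libraries of Col10a1 and Col12a1 lay below all others of that hairpin.

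Among lower and rising genes, Col28a1 was at 1.598, 1.89 and 1.36 RPM without and at 0.959, 1.32 and 0.916 RPM with 5-aza. It fell by 0.61 ± 0.19 (limma adjusted p = 0.0339), a call lost without the 4 libraries named for Col1a1. Col9a3 rose from the 3.20, 3.41 and 3.64 RPM given above to 4.60, 5.04 and 4.36 RPM. Its log2 fold change was 0.45 ± 0.11 (limma adjusted p = 0.0132), and it lost the call after quantile normalisation or correction for GC content, with an adjusted p of up to 0.0537. Col20a1 was at 1.48, 1.33 and 1.58 RPM without and at 1.69, 2.04 and 2.21 RPM with 5-aza. It rose by 0.43 ± 0.13 (limma adjusted p = 0.0318), a call lost without replicate A or 1 of the Setdb1 hairpin or replicate A or B of that hairpin with 5-aza, with an adjusted p of up to 0.146. With the correction for GC content no collagen was called higher and 10 were called lower. Col6a1 (472, 595 and 444 RPM without, 356, 587 and 381 RPM with 5-aza) and Col6a2 (294, 419.7 and 286 RPM without, 188, 370.4 and 203 RPM with 5-aza) overlapped and were called lower only with the pair block. Col6a3 (999.5, 1109 and 922 RPM without, 1011, 1153 and 1026 RPM with 5-aza) and Col4a1 and Col4a2 were called in neither fit. These type IV chains differed by −0.07 ± 0.07 and −0.08 ± 0.09 (limma adjusted p = 0.501 and 0.523).

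Whether the response to 5-aza differed between hairpins was tested by the interaction. By limma, 0 of 31 collagens passed in either direction, against 0.0% of all tested genes higher and 0.3883% lower, and 0 of 31 had an unadjusted p under 0.05, against 701 of all 13134 genes. The median interaction term was −0.33 over the collagens and 0.02 over all genes, and 27 of 31 values were below 0, against 5592 of all 13134. A call in Setdb1 hairpin cells and none in control cells is therefore not shown to be a difference between them. With the pair block, limma called 3 lower, against 0.2741% of all tested genes higher and 1.013% lower. That fit also uses the control hairpin pairs, which did not all correlate above 0.1. The 4 comparisons of 2 groups share libraries, so their counts are not independent.

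Collagens varied together among libraries of the same group. In deviations from the group means over the 12 libraries, 19 of the 30 other tested collagens followed Col1a1 with a Pearson r over 0.8, among them Col3a1 (0.996), Col5a1 (0.996), Col1a2 (0.989) and Col4a2 (0.973). Another 7 had a negative r, the lowest being Col2a1 (−0.80), Col4a6 (−0.79) and Col4a5 (−0.63). These values describe 12 points that share their libraries and depth. How many of all tested genes follow Col1a1 in this way was not counted, so the pattern is not shown to be particular to collagens. The median SD within groups was 0.251 on the log2 scale over collagens and 0.0856 over all genes tested. Replicate A stood highest in 3 groups, with a median deviation of 0.30 in control with 5-aza, 0.16 in Setdb1 and 0.19 in Setdb1 with 5-aza. Replicate 1 of the control group was low both without (−0.18) and with 5-aza (−0.25). Over all genes the median deviation of a library stayed between −0.03 and 0.03. Genes outside the family moved with the same libraries: Lum, a small proteoglycan that binds collagen fibrils, was at 0.415, 3.75 and 1.21 RPM in control and at 0.441, 2.32 and 0.338 RPM in Setdb1 hairpin libraries, both with 5-aza. Pparg, a regulator of fat cells, went the other way there, at 13.9, 4.16 and 7.13 RPM and at 16.3, 8.64 and 16.4 RPM. Their part in the collagen values was not tested. The median GC content of the tested collagen transcripts was 56.1%, against 49.7% for all genes tested.

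**Figure D4:**
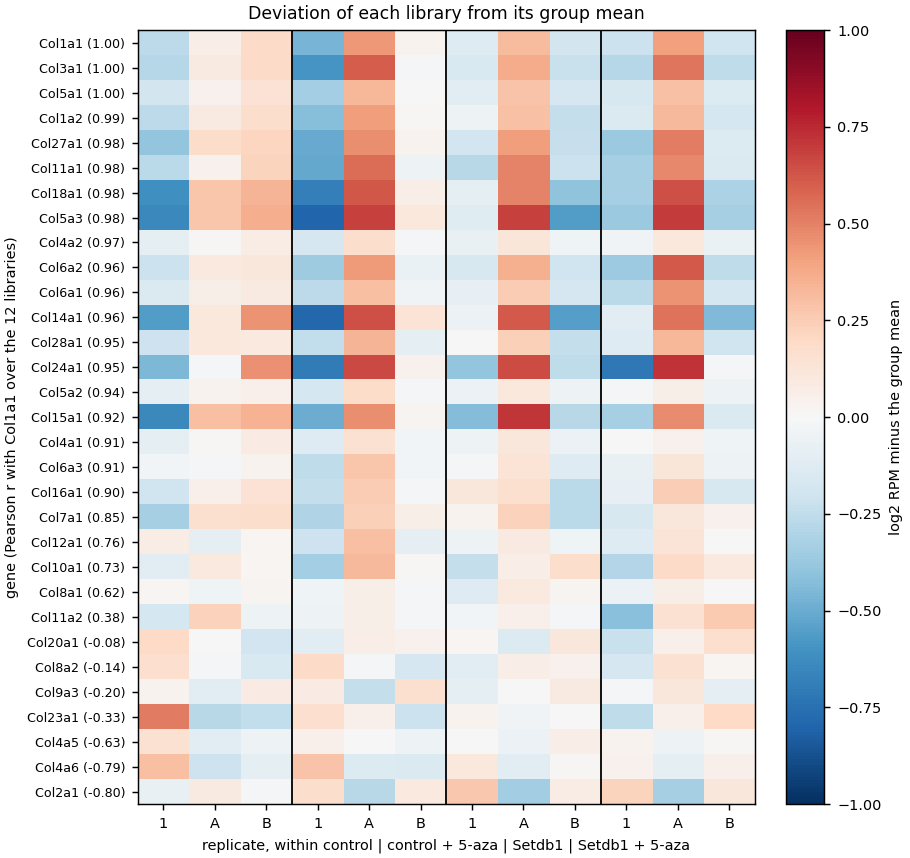
Deviation of log2 RPM from the group mean for the 31 tested collagens (rows, ordered by Pearson r with Col1a1, given in parentheses) in the 12 hairpin libraries (columns). Replicate A is above the mean (red) for 25 to 28 of the 31 collagens in the 3 groups other than control, and Col2a1, Col4a6 and Col4a5, at the bottom, run the other way.

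Partner chains were also compared as ratios. Per kb of transcript, Col1a1 was 1.79 to 2.19 times Col1a2 over the 12 libraries, and lowest with Setdb1 hairpins and 5-aza (1.88 ± 0.106, against 2.17 ± 0.0264 in control, SD, n = 3). Col4a2 was 0.725 to 0.791 times Col4a1. Col6a1 was 1.57 to 2.15 times Col6a2. Col5a1 was 0.675 to 1.22 times Col5a2, with 1.01 ± 0.0646 in control and 0.753 ± 0.109 with Setdb1 hairpins and 5-aza. Col4a5 was 27.6 to 41.7 times its head-to-head neighbour Col4a6. These ratios are descriptions, with no test. The share of collagens in summed RPM was 2.68%, 3.12% and 3.31% in control, 2.21%, 3.51% and 2.78% in control with 5-aza, 2.91%, 3.64% and 2.79% with Setdb1 hairpins, and 1.996%, 2.65% and 2.02% with Setdb1 hairpins and 5-aza. The last group lay below the Setdb1 hairpin group and overlapped the control group with 5-aza.

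Genes that make, process and sense collagen were counted on lists of 59 genes, of which 57 were tested. With Setdb1 hairpins and no 5-aza 4 rose (7.02%, against the 9.007% of all genes given above) and 2 fell (3.51%, against 3.403%). In the presence of 5-aza 3 rose (5.26%, against 14.5%) and 7 fell (12.3%, against 5.368%). With 5-aza in control cells 5 rose (8.77%, against 13.47%) and 3 fell (5.26%, against 5.345%). In Setdb1 hairpin cells 5 rose (8.77%, against 21.36%) and 14 fell (24.6%, against 7.515%), and the pair block gave 8 (14.0%, against 28.28%) and 21 (36.8%, against 11.89%). In control cells, whose pairs did not all correlate above 0.1, the pair block gave 14 higher (24.6%, against 20.6%) and 8 lower (14.0%, against 9.12%). In chain modification and folding, P4ha3, a prolyl hydroxylase subunit, fell with Setdb1 hairpins by 0.35 without and 0.53 with 5-aza, and fell by 0.41 with 5-aza in Setdb1 hairpin cells. The first of these calls was lost without replicate A or B of the control hairpin or replicate 1 of the Setdb1 hairpin, with a limma adjusted p of up to 0.1004. Serpinh1, the collagen chaperone, fell by 0.29 with 5-aza in Setdb1 hairpin cells, from 2223 to 2416 RPM to 1828 to 1971 RPM. In cleavage and cross-linking, Lox, which oxidises lysines for cross-links, fell with 5-aza by 0.47 in control and 0.58 in Setdb1 hairpin cells. Tll1, a protease that trims propeptides, fell by 0.73 and 0.65 in the same comparisons. Pcolce2, an enhancer of that trimming, rose with Setdb1 hairpins by 0.46 without 5-aza, a call lost without replicate 1 of either group (limma adjusted p of up to 0.078), and by 0.64 with it, and Fmod, a fibril-binding proteoglycan, fell by 0.82 with 5-aza in Setdb1 hairpin cells.

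Of 8 collagen receptors, Itga1, an integrin subunit that binds type IV collagen, fell with Setdb1 hairpins by 0.46 without and 0.58 with 5-aza. Itga11, the subunit of a fibrillar collagen receptor, fell by 1.51 with 5-aza in Setdb1 hairpin cells, from 166, 310 and 172 RPM to 51.9, 119.5 and 61.4 RPM. Its call was lost without replicate A of the Setdb1 hairpin or replicate 1 or B of that hairpin with 5-aza, with a limma adjusted p of up to 0.0718. In the TGF-beta pathway, which drives collagen transcription in fibroblasts, Ltbp1, a binding protein of the latent ligand, rose with Setdb1 hairpins by 0.63 without and 0.67 with 5-aza. Tgfbr3, a co-receptor, rose with 5-aza by 0.79 in control and 0.86 in Setdb1 hairpin cells. The ligand Tgfb2 fell by 0.43 with Setdb1 hairpins in the presence of 5-aza and by 0.57 with 5-aza in Setdb1 hairpin cells. The former call was lost without replicate A or B of the control group with 5-aza or replicate 1 or B of the Setdb1 group with 5-aza (limma adjusted p of up to 0.0775). For the interaction 0 of the 57 passed by limma, against 51 of all 13134 genes, and 5 had an unadjusted p under 0.05, against 701 of all genes. With the pair block 4 of the 57 passed, all lower (7.02%, against 1.013% of all genes lower and 0.2741% higher), with the same limit of the control pairs. All changes in these lists are log2 values.

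The 5-aza library whose title names no hairpin has no replicate, and is set beside the 3 control libraries with 5-aza as a description. It is the PGK library, in which hairpin, strain and other differences from the control cells cannot be told apart. Of the 31 tested collagens it lay above their range for 16, within it for 11 and below it for 4. The same count was not made over all tested genes, so it is not shown to be particular to collagens. Col1a1 was at 13388 RPM, Col1a2 at 5580.3 RPM and Col3a1 at 2327 RPM, all above each of the 12 hairpin libraries. Col14a1, a partner of type I fibrils, was at 11.0 RPM, 4.20 times the highest control library with 5-aza. Col5a3 (152 RPM) and Col18a1 (202 RPM), whose end fragment is endostatin, were 2.82 and 2.17 times the highest. Col6a3, Col20a1, Col23a1 and Col4a5 were below the range, Col4a5 at 109 RPM. Collagens made up 4.22% of its summed RPM. Its macrophage markers summed to 109.8 RPM, with Lyz2 at 55.9 and Emr1 at 5.40 RPM, and Schwann cell markers to 5.00 RPM. Skeletal muscle markers summed to 53.8 RPM, against 27.6 to 33.8 RPM in the control libraries with 5-aza, and epithelial markers to 22.2 RPM, against 9.26 to 11.2 RPM. Their part in these values was not tested.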

How the data were processed

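The deposited table holds log2 RPM, that is the log2 of reads scaled to library size (RPM), for each gene interval in each of 13 libraries, which the authors made from 100 bp single-end reads of poly(A) RNA. Per the labels the build is mm10 and CASAVA 1.4 was used. The aligner, the counter and its strand setting for this table are not given in the sources used here. The study's methods name TopHat with Bowtie1 for an alignment to the X chromosome of mm9 alone, used for allele counts, while this table covers all chromosomes. Low values fell on whole reads in 100.0% of cases (within 0.1 read), which gave each library's depth, 36.4 to 51.3 M reads in genes for the hairpin libraries. Values at the floor of the table, 0.9 read, were taken as 0 reads.

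The 13134 genes that reached 1 RPM in 3 or more hairpin libraries entered a test with limma 3.58.1 in R 4.3.3, with a mean trend in the variance, 1 fit over the 4 groups, two-sided tests and Benjamini-Hochberg adjustment over all genes at 0.05. Errors of log2 values are SE and of RPM values SD (n = 3). Tables used Python 3.11.15 with numpy 2.4.6 and pandas 2.3.3, and plots matplotlib 3.10.9. The fit was also run on simulated counts. These held no deviations shared between genes of a library, so the run does not cover the spread of the collagens. Transcript lengths and GC content came from GENCODE vM21.

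Named genes were the collagens called in a comparison, the main chains of types I, III, IV, V and VI, and some genes of the listed pathways. Members and lists were chosen with earlier results of these data known. For the pairing, deviations from group means of libraries of the same hairpin and replicate, without and with 5-aza, correlated at 0.586, 0.149 and 0.0999 for control hairpins and at 0.634, 0.413 and 0.472 for Setdb1 hairpins. Only the latter all passed 0.1, so the pair block is given beside that comparison, and elsewhere with this limit. It is 1 fit over all 12 libraries, so its spread rests on the control hairpin pairs in every comparison. Alternatives were the filter on low values, the pseudocount, scaling, GC correction, fits of 2 groups, replicate blocks and leaving out each library.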

Additional observations from a re-analysis of the deposited data

Results flagged for a closer look

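Col5a3, Col15a1 and Col6a2 responded to 5-aza differently in the Setdb1 and control hairpin cells when libraries of the same hairpin and replicate were treated as a block. The interaction was −0.82 on the log2 scale for Col5a3 (limma adjusted p = 0.0357), −0.68 for Col15a1 (limma adjusted p = 0.0424) and −0.67 for Col6a2 (limma adjusted p = 0.0464). Without the block their unadjusted limma p-values were 0.201, 0.200 and 0.0871, and the control hairpin pairs did not all correlate above 0.1.

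In the PGK library, with 5-aza and no hairpin in its title, 3 tested collagens were at least 2 times the highest control library with 5-aza. Col5a3 was at 152 RPM, Col18a1 at 202 RPM and Col14a1 at 11.0 RPM. The library has no replicate, the difference was not tested, and the same count was not made over all tested genes.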

How the results depend on the processing

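Of the counts of called collagens (5, 9, 6 and 11 in the order of the report, and 0 for the interaction), those below moved by over 1.5 times. For Setdb1 hairpins without 5-aza the count was 3 (1 higher, 2 lower) among genes of at least 5 RPM, 9 (3 and 6) with a replicate block by number alone and 8 (3 and 5) with that block and GC correction. With 5-aza it was 3 (1 and 2) in a fit of those groups alone, 14 (2 and 12) with the replicate block by number and 15 (2 and 13) with GC correction added. For 5-aza in control cells it was 12 (6 and 6) with the replicate block by number, 14 (8 and 6) with the pair block of hairpin and replicate, and 12 (4 and 8) with the pair block and GC correction. The pair block's 14 include Col6a1 and Col6a3, higher (limma adjusted p = 0.0157 and 0.0396), with 20.6% of all genes called higher and 9.12% lower. For 5-aza in Setdb1 hairpin cells it was 17 (2 and 15) with the replicate block by number, 19 (1 and 18) with GC correction added, 20 (3 and 17) with the pair block, and 20 (1 and 19) with the pair block and GC correction. The interaction gave 3 (0 and 3) under the pair block, with or without GC correction, and has no fit of 2 groups. The pair block with GC correction was added after seeing the data. The replicate block by number joins libraries across hairpins, and across hairpins same-numbered libraries correlated at −0.47 to 0.69. Leaving out each library gave 4 to 5, 2 to 14, 4 to 7, 7 to 14 and 0 to 0. Without Setdb1 hairpin replicate A, Col1a1 became −0.022 (range without each library −0.022 to 0.23) and Col3a1 −0.026 (−0.026 to 0.27) for Setdb1 hairpins. For 5-aza in control cells Col3a1 became −0.06 without control replicate 1 and −0.22 without control replicate A with 5-aza (−0.22 to 0.38), and Col1a1 0.060 (−0.39 to 0.060) and Col1a2 0.089 (−0.33 to 0.089) without control replicate 1 with 5-aza. For 5-aza the split of calls was 1 higher and 4 lower in control cells under median centring, quantile normalisation or GC correction, and 1 and 9, 0 and 8, and 0 and 10 in Setdb1 hairpin cells. Over 44 gene values, settings other than leaving out a library left 423 on their side of the threshold, 37 lost and 15 gained it. When each library was left out, 441 stayed on their side, 77 lost and 4 gained the call, and 6 changed sign. The cause of these shifts was not tested. With 3 libraries a group, the within-group spread of collagens limits what could be called.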
